A study of Mus musculus with 14 samples.

Results

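The genes described here are 43 that encode subunits of the vacuolar proton pump and other proteins of the lysosomal membrane, out of 41739 genes in a deposited expression table of mouse microglia. The rule lists them by gene name and uses no measured value, although the list was drawn up with earlier results of these data known. All 43 were found in the table through their gene symbols; LIMP2 is listed there as Scarb2. By role they are 8 genes of the V0 membrane sector of the pump, 8 of its V1 catalytic sector, 2 accessory subunits, 6 membrane glycoproteins, 3 genes of the LAPTM family, 8 channels and exchangers, and 8 transporters and other membrane proteins.

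Microglia are the resident macrophages of the brain, and here they were isolated with magnetic beads from mice 8 weeks old. All mice carried floxed Rheb alleles, and tamoxifen was given to activate the Cre. Rheb encodes the small GTPase that activates the kinase complex mTORC1 at the lysosome. The 4 groups were Rheb F/F under PBS (3 libraries), Rheb F/F; Tmem119-cre ER under PBS (3 libraries), Rheb F/F under LPS (4 libraries) and Rheb F/F; Tmem119-cre ER under LPS (4 libraries). Below, libraries without Cre are called WT and those with Cre are called KO. LPS, the bacterial lipopolysaccharide that activates the receptor TLR4, was injected at 1.0 mg/kg on each of 4 days, and PBS is the saline in which it is given. Cre in this line is expressed from the Tmem119 locus, which is active in microglia. Cre was present in KO alone, so what Cre or the altered Tmem119 locus did and what loss of Rheb did cannot be told apart.

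The V-ATPase is the rotary pump that acidifies the lysosome: the V1 sector in the cytosol hydrolyses ATP, and the V0 sector in the membrane carries the protons across. The a subunit of V0 exists as several isoforms from different genes, which place the pump on different membranes, and the isoform of Tcirg1 is typical of osteoclasts and macrophages. Around the pump the membrane is lined by heavily glycosylated proteins such as LAMP1 and LAMP2, and it holds channels for calcium, potassium and chloride and carriers that let amino acids, sugars, nucleosides and cholesterol leave. The transcription factors TFEB and TFE3 bind a palindromic sequence with the core CACGTG, known as the CLEAR or E-box element, near the starts of many lysosomal genes.

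Promoter sequences were taken from RefSeq on the build GRCm38.p6, from 250 bases before to 50 bases after the annotated start, and 33 of the 43 genes had an entry. CACGTG, which reads the same on both strands, occurred in 10 of these 33 promoters (30.3%), against 2187 of the promoters of 27025 genes (8.09%) with an entry. The longer palindrome TCACGTGA, which contains the first motif, occurred in 7 of 33 (21.2%) against 304 (1.12%). With 1 further base on each side, G before and C after, the palindrome occurred in 1 of 33 (3.03%), Cln3, against 100 genes (0.370%). The 120 bases before the start are shown 5′ to 3′ on the gene's own strand for 6 genes, with each CACGTG in capitals. Lamp1, Mcoln1 and Atp6v0b are shown because the core repeats in them, Cd164 and Mcoln2 because they had the lowest and the highest fold change under LPS, and Cd63 because it was the gene called between genotypes. These 6 were chosen after their values were seen.
Lamp1 (chr8:13159041-13159160, plus strand): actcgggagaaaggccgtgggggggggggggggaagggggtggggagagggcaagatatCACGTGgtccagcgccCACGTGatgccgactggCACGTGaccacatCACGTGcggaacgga
Mcoln1 (chr8:3500399-3500518, plus strand): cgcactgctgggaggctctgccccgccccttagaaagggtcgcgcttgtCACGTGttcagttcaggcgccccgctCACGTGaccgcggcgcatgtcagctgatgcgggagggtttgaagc
Cd164 (chr10:41519380-41519499, plus strand): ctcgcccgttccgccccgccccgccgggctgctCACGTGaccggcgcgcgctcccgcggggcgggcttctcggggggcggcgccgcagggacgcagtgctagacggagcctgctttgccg
Atp6v0b (chr4:117887330-117887449, minus strand): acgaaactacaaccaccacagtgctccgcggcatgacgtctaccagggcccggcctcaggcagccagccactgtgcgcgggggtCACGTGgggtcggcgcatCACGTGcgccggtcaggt
Mcoln2 (chr3:146150054-146150173, plus strand): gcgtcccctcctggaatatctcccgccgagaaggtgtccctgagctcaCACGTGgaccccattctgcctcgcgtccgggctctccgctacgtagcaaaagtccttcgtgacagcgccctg
Cd63 (chr10:128909225-128909344, plus strand): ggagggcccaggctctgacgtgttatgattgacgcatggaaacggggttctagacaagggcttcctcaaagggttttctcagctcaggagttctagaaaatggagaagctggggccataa

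Lamp1 held 4 cores in this stretch, Mcoln1 and Atp6v0b 2 each, Cd164 and Mcoln2 1 each, and Cd63 held 0. A match is a description of the letters only, and binding of a factor was not measured.

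Values are TPM, transcript abundances scaled by gene length and by the library total, and a gene is said to have risen or fallen, or is called, at an adjusted p under 0.05 in limma on log2(TPM + 1) with Benjamini-Hochberg adjustment over the 18724 genes that reached a TPM of 1 in 3 or more libraries. Fold changes (log2) and their standard errors (SE) are on the log2(TPM + 1) scale. Of the 43 genes 41 passed the filter; Atp6v0d2 and Mcoln3 did not, and Mcoln2 passed only through LPS libraries.

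Some facts of the libraries touch every comparison. Read totals recovered from the table ran from 8.00 M in KO LPS library 4 to 32.3 M in WT LPS library 1. Rheb itself was 32.1 ± 2.39 TPM (SD, n = 3) in WT and 18.2 ± 1.43 (n = 3) in KO under PBS, where it fell by 0.79 on the log2 scale (adjusted p = 0.0163). Under LPS it was 30.8 ± 3.83 (n = 4) and 22.7 ± 2.43 (n = 4), a log2 fold change of -0.42 that was not called (adjusted p = 0.11). Xist was at most 0.147 TPM in the 6 PBS libraries and 255 to 574 in the 8 LPS libraries, while the Y-linked gene Ddx3y was 111 to 146 under PBS and at most 0.270 under LPS. The series' design text gives female mice, and in these libraries the signs of sex ran with the treatment, so sex and LPS cannot be told apart. The RNA gene Gm23935 took 0.0566% to 0.248% of all TPM under PBS and 4.04% to 15.4% under LPS. Growth hormone (Gh), a pituitary transcript, was 78126 TPM in 1 WT PBS library and 19672 in KO LPS library 3, and at most 1.90 elsewhere. The 12 microglial marker genes were present in every group, at a summed 33682 to 43716 TPM in WT PBS, 38254 to 41336 in KO PBS, 26780 to 31124 in WT LPS and 19498 to 26407 in KO LPS. Markers of other cells were present too: 10 neutrophil genes summed to 5163 to 25561 TPM over the 14 libraries, and 9 genes of choroid plexus and ependyma to 2388 to 26168. In such bulk samples fewer cells of a type and less RNA per cell cannot be told apart.

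Lysosomal membrane genes ranged widely in level. In WT under PBS, Laptm5, whose product sorts receptors to the lysosome in blood-derived cells, had the highest level of the 43, 1775 ± 217 TPM (SD, n = 3), and was number 53 of all genes. Laptm4a (1159 ± 96.8), Cd164 (1035 ± 183), Lamp1 (1027 ± 106) and Cd68 (924 ± 164), the macrophage glycoprotein, followed, with spreads between libraries that overlapped. Within each WT PBS library, though, Laptm4a was above Cd164, Lamp1 and Cd68, and Lamp1 was above Cd68. Pump subunits were lower: the accessory subunit Atp6ap1 led with 371 ± 29.3 TPM, Atp6v0b with 315 ± 27.7 and Atp6v1g1 with 311 ± 6.33 came next, and Atp6v1h was the lowest tested subunit with 21.0 ± 1.22. TPM here is scaled by the length of all annotated exons of a gene, so the order of genes depends on that length. Atp6v1h has 9746 bases of annotated exons and gave 984, 811 and 1077 recovered reads in WT PBS. Atp6v1f has 1063 bases and gave 815, 778 and 843.

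At the other end stood 3 genes near the detection limit. Atp6v0d2, the d2 isoform found in osteoclasts, gave 0, 1 and 5 recovered reads in WT PBS, 7, 17 and 24 in KO PBS, 19, 11, 4 and 0 in WT LPS, and 12, 11, 9 and 0 in KO LPS. The KO PBS libraries were above the WT PBS libraries in this gene, which was too low to be tested. Mcoln3 gave 0, 4 and 16 reads in WT PBS, 17, 6 and 1 in KO PBS, 6, 9, 3 and 7 in WT LPS, and 2, 1, 40 and 0 in KO LPS, with overlap among all groups. Together the 43 genes took 0.918% to 1.11% of all TPM in WT PBS, 1.04% to 1.077% in KO PBS, 0.819% to 0.940% in WT LPS and 0.762% to 0.819% in KO LPS.

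**Figure D1:**
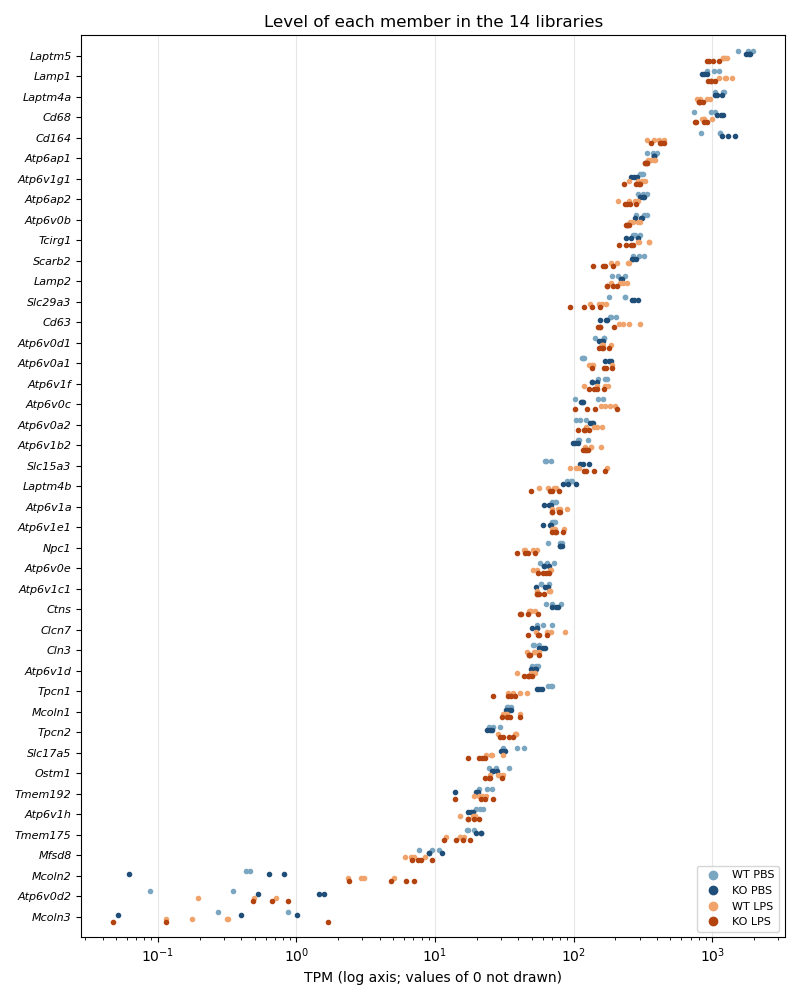
TPM of each of the 43 genes in the 14 libraries, on a log axis, with genes on the vertical axis and groups by colour; values of 0 are not drawn. Laptm5 lies highest, and Mcoln2, Atp6v0d2 and Mcoln3 lie lowest, with Mcoln2 higher in the LPS groups than in the PBS groups.

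The first comparison asked what loss of Rheb did to these genes without LPS. None of the 41 tested genes was called, against 1.02% of all genes tested (191 of 18724), of which those higher in KO were 0.796% and those lower 0.224%. At an unadjusted p under 0.05 there were 6 of the 41, and 15.7% of all genes, and voom on recovered reads called 0 of the 41. The median log2 fold change of the 41 was -0.03, beside -0.00 over all genes tested. Transcripts nearest to a call were Slc15a3 and Atp6v0a1, both with higher values in KO.

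Slc15a3 encodes a lysosomal carrier of histidine and small peptides, including bacterial muramyl dipeptides. It was 62.6, 63.6 and 69.2 TPM in the WT PBS libraries and 129.8, 116 and 112 in the KO PBS libraries. Every KO value lay above every WT value, with a mean of 183% of WT. The log2 fold change was 0.86 (SE 0.19), and it missed the threshold with an adjusted p of 0.0505. It was called under 7 of 27 other settings. Exons of Tmem132a on the opposite strand overlap 28.1% of the exon length of Slc15a3; Tmem132a averaged 15.6 TPM without and 18.9 with Cre under PBS, and its part in the Slc15a3 value was not tested, since strand is not stated for the counting.

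Atp6v0a1, the a1 isoform of the V0 sector, was 119, 114 and 118 TPM in WT PBS and 179.8, 188 and 167 in KO PBS. Again the groups did not overlap, and KO stood at 152% of WT. Its log2 fold change was 0.60 (SE 0.14) with an adjusted p of 0.0581, and 6 of 27 other settings called it. The a2 isoform gene Atp6v0a2 was 122, 111 and 105 TPM in WT and 137, 135 and 132 in KO, a log2 fold change of 0.26 (adjusted p = 0.222). Atp6v0d1, the common d isoform that links the 2 sectors, was 166, 142 and 166 TPM in WT and 159, 163 and 153 in KO, a log2 fold change of 0.01 (95% interval -0.18 to 0.20). Tcirg1, the a3 isoform gene, gave 303, 276 and 270 TPM in WT and 259.6, 291 and 240.1 in KO, values that overlapped.

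The isoform genes were also set against a summed level of these 3 and Atp6v0a4, which made up at most 0.0454% of it in any library. Of this sum Atp6v0a1 made up 21.9% to 23.96% in WT PBS and 30.6% to 31.2% in KO PBS. Tcirg1 made up 54.8% to 55.7% and 44.5% to 47.4%. Under LPS the shares of Atp6v0a1 were 21.3% to 29.7% in WT and 25.9% to 37.0% in KO, so the ranges overlapped there. Shares of 1 sum are tied together, so a higher level of Atp6v0a1 lowers the share of Tcirg1 by itself. Under PBS the level of Tcirg1 overlapped between WT and KO (log2 fold change -0.10, adjusted p = 0.684). These shares are descriptions of the same values and were not tested.

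**Figure D2:**
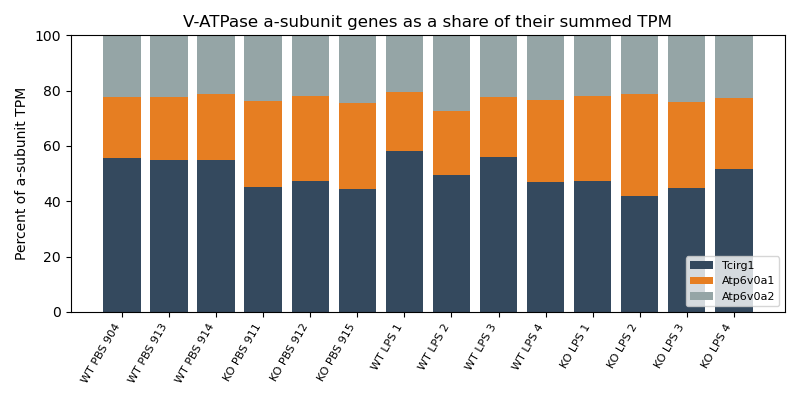
Share of the summed TPM of the V0 a-subunit isoform genes taken by Tcirg1, Atp6v0a1 and Atp6v0a2, 1 bar for each of the 14 libraries, in percent. The sum also includes Atp6v0a4. The Atp6v0a1 band is wider in the 3 KO PBS libraries (30.6% to 31.2%) than in the 3 WT PBS libraries (21.9% to 23.96%).

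In the V1 sector all 8 genes had negative fold changes under PBS, as did 9406 of all 18724 genes, and none was called. For 5 of the 8 the groups did not overlap, beside 10.9% of all genes with KO wholly lower. Over the 41 tested genes 9 were wholly lower in KO and 7 wholly higher, beside 14.9% of all genes wholly higher. Atp6v1f, a small stalk subunit, was 169, 174 and 151 TPM in WT and 135, 147 and 137 in KO, a log2 fold change of -0.23 (adjusted p = 0.419). Atp6v1a, the catalytic subunit that binds ATP, was 74.9, 73.6 and 69.8 in WT and 66.2, 69.2 and 61.5 in KO; its log2 fold change was -0.15 (95% interval -0.35 to 0.05, adjusted p = 0.456). Over the 8 V1 genes the intervals of the difference reached from -0.52 to 0.21. The summed V1 level was 856 to 880.4 TPM in WT PBS and 742 to 804 in KO PBS, ranges that did not overlap. This sum repeats the values of the same 8 genes and was not tested. Under LPS 6 of the 8 had negative and 2 positive fold changes, and 0 were without overlap between genotypes. The summed V1 level there was 753 to 978 TPM in WT and 767 to 870 in KO, which overlapped.

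Among the glycoproteins under PBS, Cd68 was 1057.1, 974.5 and 740.3 TPM in WT and 1165, 1089 and 1207 in KO (log2 fold change 0.34, adjusted p = 0.25). Cd164, a sialomucin, was 1134, 1147 and 824 in WT and 1464, 1179.7 and 1297 in KO (log2 fold change 0.35, adjusted p = 0.271). In both, the WT library with the high Gh level was the lowest and the groups did not overlap. Lamp1 was 1129.7, 1034 and 919 in WT and 879.7, 844 and 912.8 in KO, a log2 fold change of -0.22 (adjusted p = 0.334). Lamp2, its close relative that also serves chaperone-mediated autophagy, was 235, 211 and 191 in WT and 221, 225 and 219.7 in KO, with a log2 fold change of 0.07. The ratio of Lamp1 to Lamp2 was 4.81 to 4.91 in WT PBS and 3.74 to 4.15 in KO PBS.

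Channel genes showed small differences under PBS. Mcoln1, the main lysosomal calcium release channel, was 35.4, 33.9 and 33.2 TPM in WT and 32.4, 35.2 and 34.1 in KO; the log2 difference was -0.01 (95% interval -0.26 to 0.24). Tpcn1, which encodes a cation channel of endolysosomes that mTORC1 is known to regulate, was 69.5, 68.6 and 64.9 in WT and 54.1, 59.2 and 56.5 in KO without overlap (log2 fold change -0.25, adjusted p = 0.369). Tmem175, the lysosomal potassium and proton channel, was 19.1, 17.2 and 16.9 in WT and 21.4, 21.5 and 19.8 in KO (log2 fold change 0.22, adjusted p = 0.489). Exons of Dgkq on the opposite strand overlap 35.3% of its exon length.

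**Figure D3:**
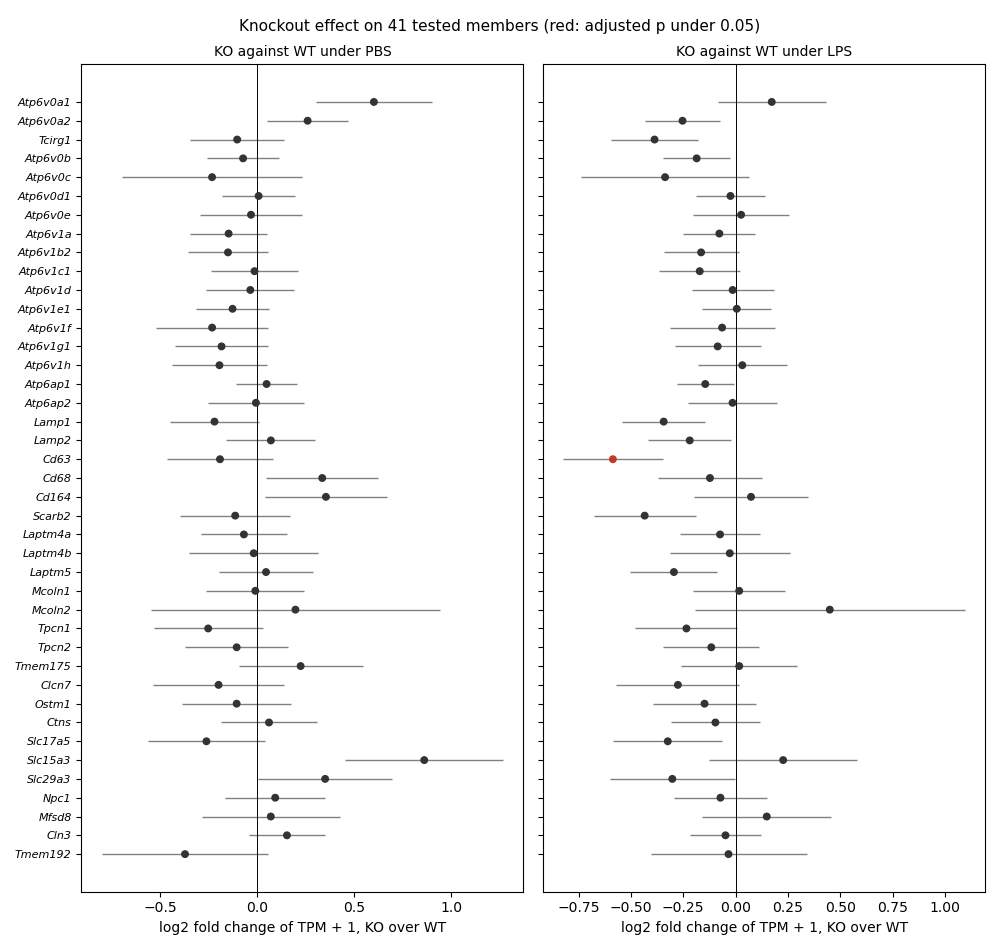
Log2 fold change of TPM + 1, KO over WT, for the 41 tested genes under PBS (left) and LPS (right), with 95% intervals; red marks an adjusted p under 0.05. Under PBS no gene is red, and Slc15a3 (0.86) and Atp6v0a1 (0.60) lie farthest right; under LPS only Cd63 (-0.59) is red.

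In the second comparison, KO against WT under LPS, 1 of the 41 genes (Cd63) fell and none rose, beside 0.497% of all genes called (93 of 18724). At an unadjusted p under 0.05 there were 11 of 41, beside 11.7% of all genes. Negative fold changes outnumbered positive ones by 31 to 10, with a median of -0.09 beside 0.07 over all genes tested. Of the 41 genes 7 had no overlap with KO lower, beside 1.96% of all genes, and none with KO higher, beside 4.22%. The sum of the 12 microglial markers was 26780 to 31124 TPM in WT LPS and 19498 to 26407 in KO LPS, without overlap. These include Tmem119, whose locus carries Cre. Without it the other 11 summed to 25109.8 to 29283 TPM and 18734 to 25391, and the ranges overlapped. Taken singly, all 12 markers had negative log2 fold changes, with a median of -0.38. Of the 12, 2 were called lower, Tmem119 among them, beside 0.24% of all genes. For 3 of the 12 the groups did not overlap, with KO lower, beside 1.96% of all genes. The part of these markers in the values was not tested.

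Cd63 encodes a tetraspanin of late endosomes and exosomes. It was 302, 226, 251 and 213 TPM in WT LPS and 156, 196, 156 and 149 in KO LPS. All KO values lay below all WT values, at 66.3% of the WT mean. The log2 fold change was -0.59 (SE 0.11, adjusted p = 0.0404). The call held in 12 of 28 other settings and the adjusted p ranged from 0.0157 to 0.201 over them. Leaving out the WT PBS library with Gh, WT LPS library 4 or KO LPS library 2 kept the call, and leaving out any other library lost it, including libraries of the PBS groups, which enter through the shared estimate of the spread. Without the pair of libraries with Gh, an alternative chosen after seeing the data, the log2 fold change was -0.57 with an adjusted p of 0.124. Under PBS the same gene was 202, 186 and 185 in WT and 175, 171 and 155 in KO, a log2 fold change of -0.19 that was not called.

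The genes next nearest to a call were all lower in KO. Lamp1 was 1401, 1246, 1265 and 1114 TPM in WT LPS and 981, 982, 932 and 1054 in KO LPS, without overlap (log2 fold change -0.34, adjusted p = 0.126). Scarb2, the receptor that carries glucocerebrosidase to lysosomes, was 253, 249, 206 and 188 in WT and 162, 139, 168 and 192 in KO, with overlap of 1 library (log2 fold change -0.43, adjusted p = 0.115). Tcirg1 was 352, 289.9, 351 and 297 in WT and 262, 214, 240.4 and 269.5 in KO, without overlap (log2 fold change -0.39, adjusted p = 0.0973). Laptm5 was 1240.25, 1273, 1191 and 1193 in WT and 914.3, 1013, 953 and 1121 in KO, without overlap (log2 fold change -0.29, adjusted p = 0.223). Of 28 other settings Lamp1 was called lower in 3, and Tcirg1 and Laptm5 in 2 each. Scarb2 was not followed through every setting, and was called lower under median-of-ratios scaling and voom on recovered reads.

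The genes nearest to a call under PBS were farther from one under LPS. Slc15a3 was 93.6, 104, 173 and 109 TPM in WT LPS and 141, 167, 119.7 and 122 in KO LPS, and the groups overlapped (log2 fold change 0.23, adjusted p = 0.634). Atp6v0a1 was 128, 135, 138 and 188 in WT and 171, 189, 166 and 135 in KO, with a log2 fold change of 0.17 (95% interval -0.09 to 0.43). Atp6v1a was 79.5, 77.6, 89.5 and 70.0 in WT and 78.8, 80.3, 70.3 and 69.9 in KO and differed by -0.08 (95% interval -0.25 to 0.09). Mcoln1 was 41.3, 33.2, 32.2 and 31.2 in WT and 33.0, 30.6, 34.8 and 41.1 in KO, a difference of 0.02 (95% interval -0.20 to 0.24). Lamp2 was 215, 245, 227 and 186 in WT and 174, 192, 175 and 207 in KO, with overlap (log2 fold change -0.22, adjusted p = 0.371). Atp6v0d1 was 163, 159.8, 186 and 159 in WT and 160.02, 181, 163 and 153 in KO, a difference of -0.02 (95% interval -0.19 to 0.14).

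**Figure D4:**
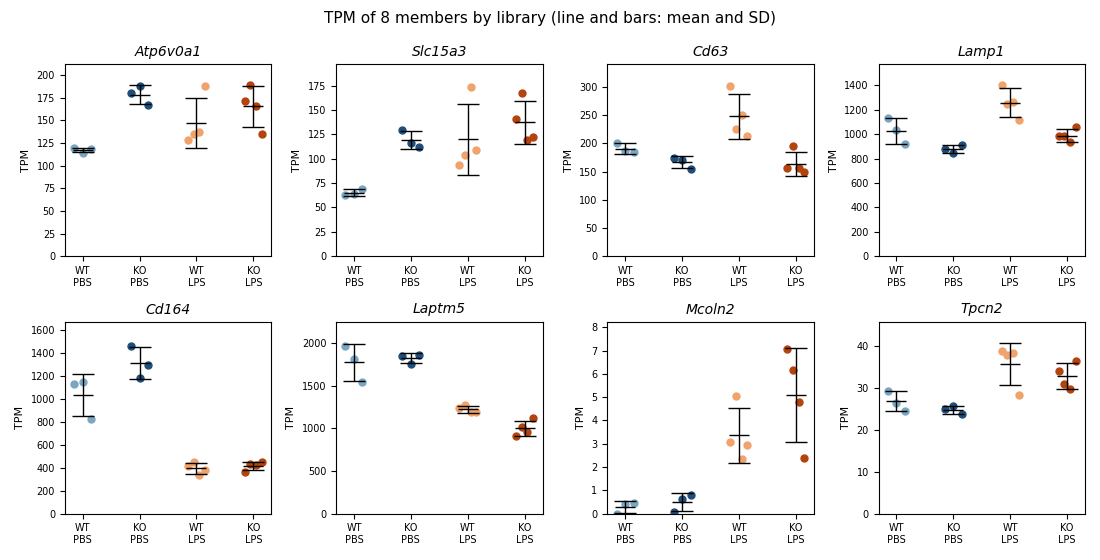
TPM of Atp6v0a1, Slc15a3, Cd63, Lamp1, Cd164, Laptm5, Mcoln2 and Tpcn2 in each library of the 4 groups (3, 3, 4 and 4 libraries), with the group mean and SD as lines; axes start at 0. Cd63 is lower in all 4 KO LPS libraries (149 to 196) than in the 4 WT LPS libraries (213 to 302), and Cd164 is lower in all LPS libraries (338 to 451) than in all PBS libraries (824 to 1464).

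The third question was how 4 days of LPS changed these genes within each genotype. In WT 18 of 41 genes (43.9%) were called, beside 42% of all genes tested; 7 rose, where 7.95% of all genes did, and 11 fell, where 34.1% of all genes did. In KO 18 of 41 were called, beside 34.7% of all genes; 2 rose, beside 7.82%, and 16 fell, beside 26.9%. At an unadjusted p under 0.05 there were 21 of 41 in WT, beside 50.5% of all genes, and 21 of 41 in KO, beside 44.6%. Groups did not overlap in WT for 5 genes higher under LPS, beside 8.45% of all genes, and 12 lower, beside 37.4%; in KO these were 6, beside 9.52%, and 18, beside 31.3%. Mcoln2, which could be tested only because of its LPS libraries, is among these rises. Without it 17 of 40 genes were called in each genotype, 6 higher and 11 lower in WT and 1 higher and 16 lower in KO. Without it groups did not overlap for 4 genes higher under LPS in WT and 5 in KO. The medians of the 41 genes were -0.04 in WT and -0.12 in KO, beside -0.28 and -0.22 over all genes tested. Of the 17 pump genes 3 were called in each genotype (in WT 2 higher and 1 lower, in KO 0 and 3), and of the other 24 genes 15 in each. With median-of-ratios scaling these were 10 of 17, all higher, and 12 of 24 in WT. In KO they were 3 of 17, all higher, and 12 of 24. That scaling called 2999 of all 18724 genes higher and 2496 lower in WT, and 2356 higher and 1904 lower in KO. With voom on recovered reads 7 of 17 pump genes were called in WT and 3 of 17 in KO, all higher. Voom called 1967 of all 18422 genes higher and 4620 lower in WT, and 1951 higher and 2415 lower in KO. Whether pump genes differed from the others was not tested.

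The direction of small changes under LPS rests on the scaling. With median-of-ratios scaling the all-gene median went from -0.28 to 0.00 in WT and from -0.22 to 0.00 in KO. The share of higher genes among all calls went from 18.9% to 54.6% in WT and from 22.6% to 55.3% in KO. Among the 41 genes that scaling called 19 higher and 3 lower in WT, and 7 higher and 8 lower in KO. These stand beside the counts over all genes given above, and Mcoln2 is among the higher genes in both genotypes. Under all 4 other scalings, which also include removal of Gm23935, quantile normalisation and a model of the recovered reads, 6 of the 7 rises in WT were called again (not Lamp1), but 3 of the 11 falls (Cd164, Npc1 and Tpcn1). In KO both rises (Mcoln2 and Tpcn2) and 7 of the 16 falls were called under all of them: Cd164, Ctns, Laptm5, Npc1, Scarb2, Slc29a3 and Tpcn1. Mcoln2 is 1 of these rises in each genotype, although it passed the filter only through LPS libraries. The others in WT were Atp6v0a2, Atp6v1b2, Cd63, Slc15a3 and Tpcn2. Over all 27 other settings Atp6v0a2 and Slc15a3 were called in 27, Tpcn2 in 25, Cd63 in 22, Lamp1 in 18 and Atp6v1b2 in 16. With 1 library left out, Cd63 was called in 10 of 14 fits and Atp6v1b2 in 6 of 14. The falls of Atp6ap1, Atp6ap2 and Cln3 in KO were called in 14, 13 and 15 of 27 settings.

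Cd164 fell most. It was 1134, 1147 and 824 TPM in WT PBS and 416, 451, 338 and 382 in WT LPS, and 1464, 1179.7 and 1297 in KO PBS against 364, 430.3, 421 and 451 in KO LPS. No LPS value reached any PBS value. The log2 fold change was -1.37 in WT (adjusted p = 2.51e-05) and -1.65 in KO (adjusted p = 5.79e-06), which left 38.3% and 31.7% of the PBS means. The promoter stretch printed for it holds the core once.

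Mcoln2, a calcium channel of recycling endosomes and lysosomes, rose from very low levels. It gave 0, 6 and 8 recovered reads in WT PBS and 99, 135, 59 and 62 in WT LPS, and 1, 9 and 15 in KO PBS against 117, 122, 107 and 19 in KO LPS. In TPM the means were 0.298 ± 0.259 and 3.36 ± 1.16 in WT, and 0.505 ± 0.394 and 5.10 ± 2.02 in KO. The log2 fold changes of 1.73 (adjusted p = 0.00137) and 1.99 (adjusted p = 0.000563) understate the ratio at such levels. It passed the filter only through LPS libraries, so its call lends no support to the counts of the list.

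Tpcn2 and Tpcn1, which encode the pair of endolysosomal cation channels opened by the lipid PI(3,5)P2, moved in opposite directions. Tpcn2 was 29.3, 26.4 and 24.6 TPM in WT PBS and 38.7, 37.8, 38.3 and 28.3 in WT LPS, where 1 library stayed within the PBS range (log2 fold change 0.40, adjusted p = 0.015). In KO it went from 24.9, 25.7 and 23.7 to 34.1, 30.9, 29.6 and 36.4 without overlap (log2 fold change 0.39, adjusted p = 0.02). Tpcn1 fell by 0.78 on the log2 scale in WT (adjusted p = 0.000483) and by 0.76 in KO (adjusted p = 0.000502). Its values were 64.9 to 69.5 in WT PBS, 54.1 to 59.2 in KO PBS, 33.4 to 45.8 in WT LPS and 26.3 to 37.9 in KO LPS, so LPS values were below PBS values in every library.

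All 3 LAPTM genes fell in both genotypes, although under median-of-ratios scaling none of the 3 was called in WT and Laptm5 alone was called in KO. In each case the LPS values lay wholly below the PBS values. Laptm5 went from 1972, 1810.2 and 1542 TPM to 1240.25, 1273, 1191 and 1193 in WT (log2 fold change -0.53, adjusted p = 0.00187), and from 1847, 1754 and 1866 to 914.3, 1013, 953 and 1121 in KO (log2 fold change -0.87, adjusted p = 7.36e-05). Laptm4a was 1207, 1222 and 1047 TPM in WT PBS and 914.3, 961, 819 and 771 in WT LPS, and 1050.2, 1089 and 1170.05 in KO PBS against 816, 805, 855 and 805 in KO LPS, and fell by 0.42 in WT and by 0.43 in KO. Laptm4b was 97.1, 95.6 and 89.1 TPM in WT PBS and 74.5, 72.6, 56.2 and 65.5 in WT LPS, and 91.4, 104 and 83.3 in KO PBS against 70.1, 79.1, 67.5 and 49.1 in KO LPS, and fell by 0.48 and by 0.49.

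Among carriers and cholesterol transport, Npc1, which moves cholesterol out of the lysosome and is mutated in Niemann-Pick disease type C, was 79.5, 82.6 and 65.2 TPM in WT PBS and 54.3, 50.7, 44.4 and 43.9 in WT LPS. In KO it went from 81.9, 79.3 and 80.1 to 46.9, 39.3, 44.8 and 52.9. The groups did not overlap in either genotype, with log2 fold changes of -0.64 (adjusted p = 0.000953) and -0.80 (adjusted p = 0.0002). Ctns, the cystine exporter, was 80.7, 69.4 and 63.0 TPM in WT PBS and 52.4, 49.3, 48.3 and 47.8 in WT LPS, and 74.5, 76.7 and 70.1 in KO PBS against 47.1, 41.1, 42.0 and 55.8 in KO LPS. It fell by 0.51 in WT and by 0.66 in KO, again without overlap. Slc17a5, the sialic acid exporter, was 43.8, 39.4 and 30.8 TPM in WT PBS and 30.7, 25.6, 23.4 and 25.4 in WT LPS, and 32.1, 30.2 and 31.2 in KO PBS against 22.02, 17.3, 23.0 and 20.9 in KO LPS. It fell by 0.51 in WT and by 0.57 in KO, without overlap. Slc29a3, the lysosomal nucleoside transporter, went from 237, 236 and 181 to 160.4, 170.4, 152 and 132 in WT and from 273, 263 and 292 to 118, 95.1, 135 and 155 in KO. Its log2 fold changes were -0.50 (adjusted p = 0.0179) and -1.15 (adjusted p = 0.000128).

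Scarb2 was 323, 297 and 269 TPM in WT PBS and 253, 249, 206 and 188 in WT LPS, and 269, 266 and 285 in KO PBS against 162, 139, 168 and 192 in KO LPS, without overlap. It fell in both genotypes, by 0.41 in WT (adjusted p = 0.0166) and by 0.73 in KO (adjusted p = 0.000663). Slc15a3, Cd63, Lamp1, Atp6v0a2 and Atp6v1b2 rose in WT and were not called in KO. For Slc15a3 the WT log2 fold change was 0.83 (adjusted p = 0.00293) and the KO one 0.20 (adjusted p = 0.425). For Cd63 they were 0.36 (adjusted p = 0.0258) and -0.03 (adjusted p = 0.874). Genes that fell in KO and were not called in WT were Atp6ap1, Atp6v0b, Cd68, Cln3 and Tmem175, with KO log2 fold changes of -0.20, -0.29, -0.49, -0.25 and -0.47; of these Cln3 went to 0.02 under median-of-ratios scaling. Cd68 was 1165, 1089 and 1207 TPM in KO PBS and 748, 874, 763 and 918 in KO LPS, without overlap, while in WT LPS it was 1001, 876, 868 and 845. Tmem175 was 21.4, 21.5 and 19.8 TPM in KO PBS and 14.2, 11.5, 16.0 and 17.9 in KO LPS, and Cln3, a lysosomal protein mutated in juvenile Batten disease, was 59.98, 62.0 and 56.2 and 48.5, 48.1, 47.4 and 56.1. All LPS values of both genes lay below the PBS values in KO. Exons of Apobr on the opposite strand overlap 7.6% of the exon length of Cln3, and Apobr averaged 89.4 TPM in KO PBS and 95.1 in KO LPS. Dgkq, which overlaps Tmem175 as given above, averaged 12.8 TPM in KO PBS and 10.3 in KO LPS. The part of Apobr and Dgkq in these values was not tested.

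**Figure D5:**
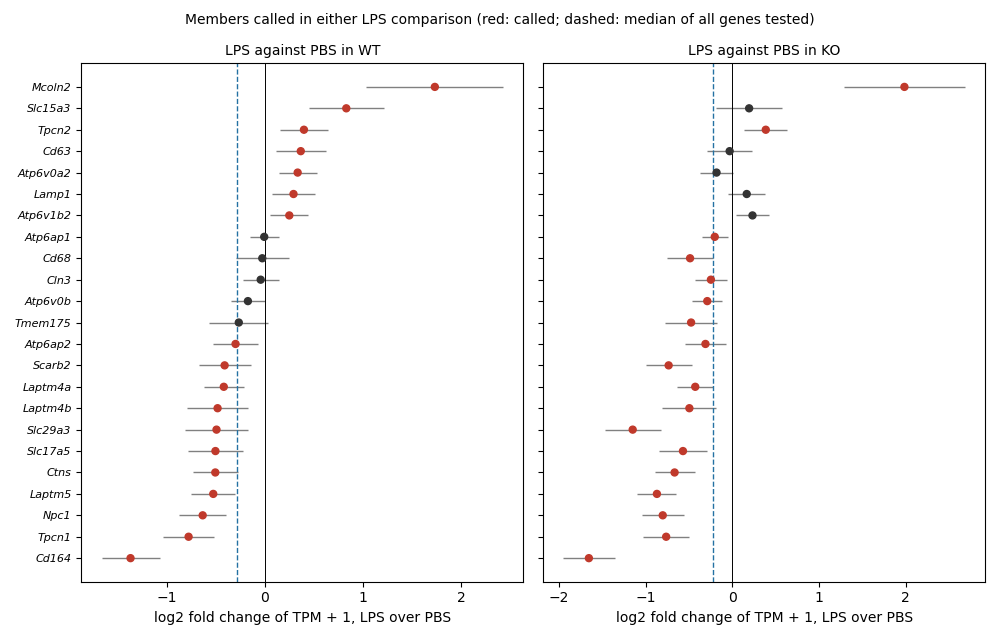
Log2 fold change of TPM + 1, LPS over PBS, in WT (left) and KO (right) for the genes called in either genotype, with 95% intervals; red marks called genes and the dashed line the median of all genes tested. Mcoln2 lies farthest right and Cd164 farthest left in both genotypes, and the smaller falls lie near the dashed line.

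With the deposited scaling, single pump genes were called under LPS as follows. In WT Atp6v0a2 rose by 0.33 (adjusted p = 0.0108) and Atp6v1b2, the B2 subunit of the V1 head, by 0.25 (adjusted p = 0.0413), while Atp6ap2, the prorenin receptor and accessory subunit, fell by 0.30 (adjusted p = 0.038), a sign that median-of-ratios scaling turned to 0.03. In KO Atp6ap1, Atp6ap2 and Atp6v0b fell, the first by 0.20, the next by 0.31 and the last by 0.29; that scaling turned Atp6ap1 to 0.07. Atp6v1b2 was 109, 108 and 128 TPM in WT PBS and 121, 134, 159 and 133 in WT LPS, and 102, 108 and 99.3 in KO PBS against 120.3, 123, 126 and 116 in KO LPS; 1 WT LPS library lay within the WT PBS range. Atp6ap2 was 339.8, 318 and 291 TPM in WT PBS and 279.6, 291, 252 and 209 in WT LPS, and 324, 317 and 301 in KO PBS against 243, 280.04, 235 and 257 in KO LPS, with LPS below PBS in KO and 1 value at the edge of the PBS range in WT. Atp6ap1 was 384, 383 and 381 in KO PBS and 326, 340.2, 328 and 337 in KO LPS, and Atp6v0b 306, 312 and 277 and 244, 239, 241 and 253, both without overlap. Summed V1 level was 856 to 880.4 TPM in WT PBS and 753 to 978 in WT LPS, and summed V0 level was 1125 to 1282 and 1226 to 1359. Atp6ap1, Atp6ap2 and Lamp2 lie on the X chromosome, where the signs of sex noted above bear on the comparison. Without these 3, 17 of 38 genes (44.7%) were called in WT and 16 of 38 (42.1%) in KO, beside 42% and 34.7% of all genes tested. Sex and LPS cannot be told apart in those 38 genes either.

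Markers of other cells also moved with LPS. The sum of 8 monocyte markers was 415 to 1356 TPM in WT PBS and 2277 to 3891 in WT LPS, and 353 to 572 in KO PBS and 2089 to 3571 in KO LPS; all 8 rose in each genotype. All 9 markers of choroid plexus and ependyma fell in each genotype. Neutrophil markers were 5729 to 23782 TPM in WT PBS, 9776 to 22507 in WT LPS, 5163 to 8181 in KO PBS and 11823 to 25561 in KO LPS. Of the 12 microglial markers 7 fell in WT, beside 34.1% of all genes, and 11 fell in KO, beside 26.9%. Their median log2 fold change was -0.48 in WT and -1.03 in KO, beside -0.28 and -0.22 over all genes tested. The part of any of these markers in the LPS values of the lysosomal genes was not tested.

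Genes not called in any comparison included 5 from the V0 sector, the channels and the carriers. Atp6v0c, the proteolipid ring subunit, ranged from 102 to 207 TPM. Clcn7, the chloride-proton exchanger, and Ostm1, its partner subunit, ranged from 46.8 to 86.7 and from 23.0 to 34.5 over the 14 libraries. Mfsd8, mutated in a form of Batten disease, ranged from 6.06 to 11.2, and Tmem192, a membrane protein used to tag lysosomes for isolation, from 13.9 to 26.3. The groups of these 5 genes overlapped in every comparison but 1, Tmem192 under PBS, where all KO values lay below all WT values (log2 fold change -0.37, adjusted p = 0.388).

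Whether LPS acted differently by genotype was tested with the interaction term. None of the 41 genes was called, and 0% of all genes tested were (0 of 18724 in limma); at an unadjusted p under 0.05 there were 7 of 41, beside 9.51% of all genes, and voom on recovered reads called 0. The smallest adjusted p of the 41 was that of Atp6v0a2, whose interaction was -0.51 (95% interval -0.79 to -0.24, adjusted p = 0.373). That gene was 123, 159, 139.6 and 148 TPM in WT LPS and 121, 108, 129 and 118 in KO LPS. Slc29a3 followed with -0.65 (adjusted p = 0.443), and Slc15a3 gave -0.63 (adjusted p = 0.501) and Cd63 -0.39 (adjusted p = 0.507). Calls made in 1 genotype and not in the other are therefore not shown to differ between genotypes.

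The presence of the core motif can be set beside these changes. Of the 33 genes with a promoter entry, 32 were tested, 10 with CACGTG and 22 without. Under PBS the median log2 fold change of KO over WT was -0.02 with the motif and -0.05 without, and under LPS -0.04 and -0.12. For LPS over PBS it was 0.04 and -0.12 in WT, and 0.04 and -0.23 in KO. The range with the motif included both Cd164 and Mcoln2, from -1.37 to 1.73 in WT. Mcoln2, which passed the filter only through LPS libraries, also enters the medians with the motif. These medians are descriptions and were not tested.

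Other genes of the same pathways were taken from lists by function. Between genotypes under PBS, 2 of 48 other lysosomal membrane genes (4.17%) rose, beside 0.796% of all genes. Mfsd12, a carrier for cysteine in lysosomes and melanosomes, rose by 0.65 (adjusted p = 0.0474). Trpm2, a calcium channel gated by ADP-ribose, rose by 1.13 (adjusted p = 0.0138). None of 14 other V-ATPase subunit and assembly genes, 13 genes that dock mTORC1 at the lysosome or 4 genes of the TFEB family was called under PBS. Of all genes 1.02% were called there. Under LPS none of these lists had a called gene between genotypes, beside 0.497% of all genes.

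Under LPS the counts of these lists stand beside 34.1% of all genes lower and 7.95% higher in WT, and 26.9% and 7.82% in KO, and nothing particular to the lists is read from them. In WT 7 of the 14 other V-ATPase genes fell and none rose, and Atp6v0e2 had a log2 fold change of -1.49. In KO 5 of 14 fell, and the lowest log2 fold change of the 14 was -0.71. Of the docking genes 6 of 13 fell in WT, where Rragd, a GTPase that recruits mTORC1, had -1.70. In KO 5 of 13 fell, and the lowest log2 fold change of the 13 was -0.65. No gene of these lists was called for the interaction. Of 48 other lysosomal membrane genes 8 rose and 14 fell in WT, and 5 rose and 21 fell in KO. P2rx4, a lysosomal ATP-gated channel, rose by 0.94 in WT and by 0.56 in KO, and Abca2 had -0.86 and -0.75. Within the TFEB family Tfec rose by 1.21 in WT and by 1.13 in KO, while Tfeb fell by 0.33 and by 0.51 and Mitf fell by 0.36 and by 0.55; Tfe3 fell by 0.23 in KO. Genes with a fold change near the all-gene median carry the same dependence on scaling as the 41.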

How the data were processed

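Total RNA of microglia was sequenced in 14 libraries. The authors deposited TPM per gene. The submitters' processing notes list STAR 2.7.10b, featureCounts 2.0.1, cutadapt 4.4 and FastQC 0.11.9, and as build hg38, although the gene IDs are of mouse. Strand is not given in the sources used here.

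Multiplied by exon-union lengths from the reference annotation, TPM values were whole multiples of 1 read within 0.02 for 98.4% to 98.6% of values per library, and the totals are estimates of depth. Low genes therefore have few reads, and replicate correlations within groups were 0.939 to 0.976.

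The log2 of TPM plus 1 was fitted with limma 3.58.1 in R 4.3.3 over all 14 libraries, as 4 group means with an intensity trend, and p-values were adjusted by Benjamini-Hochberg over the 18724 genes that reached a TPM of 1 in 3 or more libraries; every adjusted p is from this fit unless another is named. The fit was tested on simulated data. Whether each library is a separate animal is not labelled; the p-values then reflect the spread among libraries alone, which may be technical. The 43 genes, the other lists and the tests were chosen with earlier results of these data known. By rule, values per library are given for the genes called in any comparison, for the 2 with the smallest p where none was called, and for Lamp1, Lamp2, Cd68, Cd63, Atp6v0d1, Atp6v0d2, Atp6v1a, Tcirg1, Laptm5 and Mcoln1; others of the 43 named with values were chosen after their values were seen. Other lists are given by counts and up to 3 called genes per direction. Alternatives were pseudocounts, filters, scalings, variance models, a replicate block and leaving out each library; those without the 2 libraries with Gh and without Gm23935 were chosen after seeing the data.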

Additional observations from a re-analysis of the deposited data

Results flagged for a closer look

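Among 83 gene and group combinations of 4 libraries, 8 had 1 library standing apart from the other 3 by Dixon's test at the 95% level; chance flags about 1 in 20 such groups. In WT LPS, library 4 stood apart in 4 genes: Atp6v0a1 was 188 TPM there against 128 to 138 in the other 3, Atp6v1c1 was 54.7 against 66.0 to 68.2, Atp6v1h was 15.1 against 18.9 to 19.5, and Tpcn2 was 28.3 against 37.8 to 38.7. In WT LPS library 3, Atp6v0d1 was 186 TPM against 159 to 163. In KO LPS library 2, Cd63 was 196 TPM against 149 to 156. In KO LPS library 3, a library with Gh, Mcoln3 was 1.70 TPM against 0 to 0.114. In KO LPS library 4, the library with the fewest reads, Cln3 was 56.1 TPM against 47.4 to 48.5.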

How the results depend on the processing

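Depth limits Mcoln2, Mcoln3 and Atp6v0d2. For KO against WT under PBS, 0 of the 41 genes was called, but 2 with a filter at a TPM of 5, library weights or the compared groups alone (Atp6v0a1 and Slc15a3), 2 with quantile normalisation (Lamp1 and Slc15a3), 1 with Gm23935 removed (Slc15a3), and 0 to 2 with 1 library left out. For KO against WT under LPS, the 1 call became 0 without a filter, without the intensity trend, with the compared groups alone and without both libraries with Gh, and 0 to 1 with 1 library left out; it became 4 with median-of-ratios scaling, 3 with quantile normalisation, 2 with library weights and 5 with voom on recovered reads, and each of these sets held Cd63. Libraries of the same replicate number under LPS did not deviate together (correlations of 0.0608, -0.0563, -0.0862 and -0.026), and with the replicate block the call under LPS was lost (0 of 41; adjusted p of Cd63 0.0654) and the interaction stayed at 0. The PBS libraries share no numbers. Over all genes, calls under LPS were 23 with the block, 0 with the compared groups alone, 141 with a filter at a TPM of 5, 170 with median-of-ratios scaling, of which 15.9% were higher against 51.6%, and 298 with voom. With 1 library left out they were 18 to 107. Calls under PBS were 8 to 286 with 1 library left out, 79 without a filter, 65 without the trend, 387 with quantile normalisation, 999 with library weights and 297 with Gm23935 removed. Calls of the 41 genes for LPS against PBS were 12 to 22 in WT and 12 to 20 in KO over all settings, and the interaction had 0 in each.

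Between genotypes, among the named genes followed through every setting, signs turned only in those with a log2 fold change within 0.1 of 0. Under PBS, Atp6v0d1 was -0.016 with median-of-ratios, -0.0463 with quantile, -0.042 with voom and -0.066 to 0.044 with 1 library left out; Lamp2 was -0.0064 with quantile, -0.00295 without the WT PBS library with Gh (alone or with KO LPS library 3) and up to 0.146 with another left out; Laptm5 was -0.00353 with weights, -0.053 without the same libraries and up to 0.125; Mcoln1 was -0.037 to 0.022 with 1 library left out. Under LPS, Atp6v0d1 was 0.0053 with quantile and -0.071 to 0.028 with 1 library left out, and Mcoln1 was -0.069 with median-of-ratios, -0.019 with quantile, -0.042 with weights, -0.00672 with voom and -0.063 to 0.104 with 1 library left out. For LPS against PBS, median-of-ratios turned the falls of Atp6ap2 in WT to 0.032 and of Atp6ap1 and Cln3 in KO to 0.067 and 0.018, and voom turned Atp6ap1 to 0.0042; the cause was not tested.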
